A study of Danio rerio with 2 samples.

Results

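The neuronal and synaptic function genes are 51 zebrafish (Danio rerio) gene symbols. They encode the machinery of transmitter release, the enzymes, transporters and receptors of neurotransmission, neuronal cytoskeleton and adhesion proteins, and a few glial proteins. They were chosen by name, from what the genes are known for, with earlier results of these data known. A symbol was followed when it equalled a gene name in the authors' deposited comparison table, in upper or lower case, and the Ensembl identifier beside that name led to its counts. Of the 51 symbols 48 were found among the 26126 genes listed. The symbols chata, gap43 and ina matched no gene name in that table and were dropped. Of the 48 genes 47 had at least 10 counts over both libraries and are called measured, as are 24009 genes of the whole table. The myelin gene mbpa fell short, with 1 count in the library labelled mutant and 6 in the library labelled wild type.

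RNA of zebrafish hearts was sequenced at 48 hours post fertilization. The series holds 1 library from fish homozygous for a kctd10 mutation (kctd10 -/-) and 1 library from wild-type fish, both in the AB strain background. kctd10 encodes an adaptor of cullin-based ubiquitin ligases. The sources used here do not say how many hearts went into a library, what the mutation does to the gene, or how the fish of both libraries were related.

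Neurons pass signals by fusing transmitter-filled vesicles with their surface membrane. The SNARE proteins synaptobrevin on the vesicle and SNAP-25 and syntaxin on the membrane zip together, Munc18 guides their assembly, and complexin and the calcium sensor synaptotagmin time the fusion. What a vesicle carries depends on the enzymes and vesicular transporters its neuron makes, and the receiving cell answers through receptors, many of them ion channels. In the embryo the brain, spinal cord, retina and ganglia hold most neurons, and the heart gains its nerve supply as development proceeds.

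The counts over all genes came to 139099775 in the library labelled mutant and 150001992 in the library labelled wild type. kctd10 itself had 19942 counts in the library labelled mutant and 8226 in the library labelled wild type, a ratio of 2.57 after scaling. This amount does not check the labels, because the kind of mutation is unknown here, so the libraries are named as labelled throughout. With 1 library per genotype there was no replicate error and no test. Each ratio compares 2 libraries, not the genotypes, and each 95% interval covers counting error only. Counts are given as deposited, while levels in CPM (counts scaled to a common library size) and all ratios, which are of the library labelled mutant to the one labelled wild type, use TMM scaling. The 5 heart muscle markers were myl7, vmhc, myh6, tnnt2a and cmlc1. They summed to 8272 CPM in the library labelled mutant and 5338 CPM in the library labelled wild type. Their summed ratio was 1.55, with all 5 ratios above 1. The 3 skin markers krt4, krt5 and cyt1 summed to 25589 CPM in the library labelled mutant and 37383 CPM in the library labelled wild type, a ratio of 0.685. The 4 skeletal muscle markers myhz2, mylpfa, tnnt3a and ckma summed to 575 CPM in the library labelled mutant and 1236 CPM in the library labelled wild type. Their summed ratio was 0.465, with all 4 ratios below 1. No marker of these sets was at 0 in either library, and the part of other tissues in the values that follow was not tested.

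Most neuronal and synaptic genes had a smaller share of the counts in the library labelled mutant. The median ratio of the 47 measured members was 0.703, against 0.999 over all 24009 measured genes. On the log2 scale the members' median was −0.51. Their interquartile range, −0.66 to −0.30, lay wholly below that of all measured genes, −0.29 to 0.27. Summed over members, the level was 2819 CPM in the library labelled mutant and 3903 CPM in the library labelled wild type, a ratio of 0.722, and 0.742 without the 3 most counted members. In bulk RNA, fewer cells of a type and less RNA per cell cannot be told apart.

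The log2 ratio was negative for 39 of 47 members (83.0%), against 50.1% of all measured genes. Of the members 28 (59.6%) lay within 0.25 of the members' own median on the log2 scale, beside 46.0% of all measured genes within 0.25 of theirs. Among the 36 members with at least 1000 counts the log2 ratio was negative for 91.7%, against 49.2% of all genes counted as often.

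A gene was called lower when its whole 95% interval lay below 0.667 (1.5-fold lower) and higher when it lay above 1.5. By that rule 11 of the 47 members (23.4%) were lower, against 6.68% of all measured genes, and none was higher, against 5.99%. Among the 11 were snap25b, cplx2, slc32a1, slc6a5, slc18a3a, th2, cntn2, stmn1b, stmn2b and neflb. With no fold limit, the whole interval lay below 1 for 37 members (78.7%), against 34.2% of all measured genes. It lay above 1 for 6 members, against 33.9% of all measured genes: slc6a9, tph2, glra1, inaa, gfap and plp1a. The point ratios of the last 3 were below 1 when the libraries were scaled to cardiac sarcomere genes instead. Under that scaling, its factor taken as free of error, only the interval of tph2 (1.11 to 1.46) among the 6 stayed above 1. That of gfap (0.898 to 0.970) lay below 1, and those of slc6a9, glra1, inaa and plp1a held 1. The sarcomere scaling lowers every ratio, and under it the median log2 ratio was −0.34 over all measured genes and −0.84 over the members. Under TMM scaling the interval held 1 for syt1b, th, ddc and gria2b. Many members lay near the limit. The upper ends of the intervals of stmn1b (0.630), cplx2 (0.633) and slc32a1 (0.648) were just inside it, and those of gad2 (0.676), tubb5 (0.677) and slc17a6b (0.678) just outside.

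**Figure D1:**
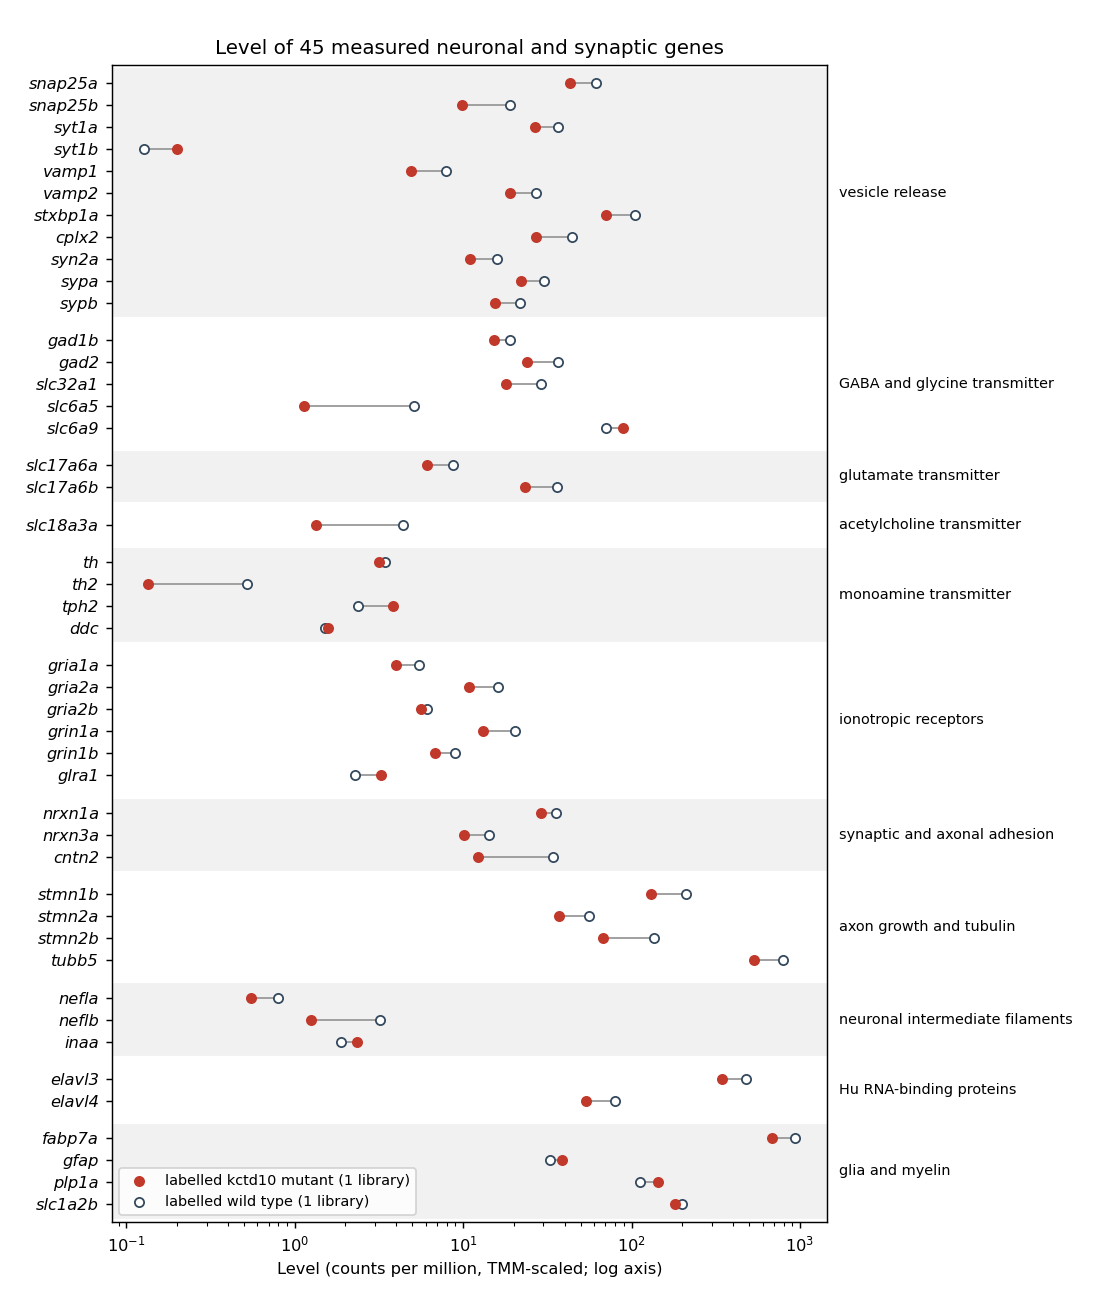
Level of 45 measured members in CPM (log axis), with filled points for the library labelled kctd10 mutant and open points for the library labelled wild type, grouped by role. Filled points lie left of open points for 37 of the 45. Levels are not corrected for gene length, so genes cannot be ranked against each other.

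**Figure D2:**
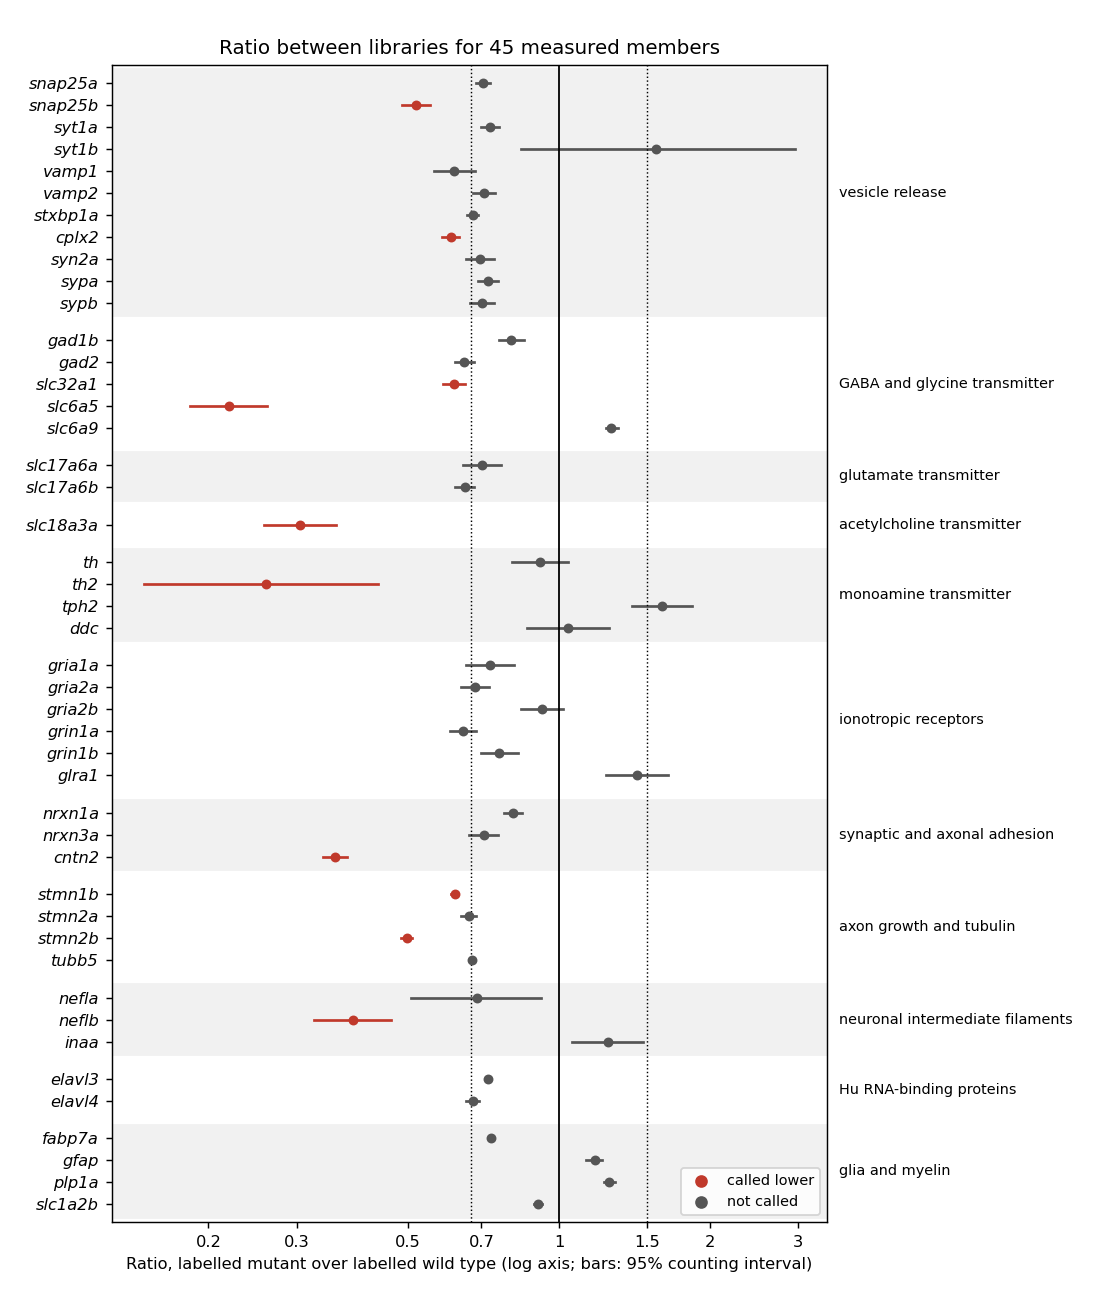
Ratio of the library labelled mutant to the one labelled wild type for 45 measured members (log axis), with 95% counting intervals. The solid line marks no change and the dotted lines 1.5-fold. The 10 of them called lower are in red. Most other ratios crowd between the left dotted line and no change, and 8 points lie above 1. Of these 8, the points of ddc, inaa, gfap and plp1a move below 1 under scaling to sarcomere genes. The scaled intervals of inaa and plp1a hold 1. That scaling puts the median log2 ratio of all measured genes at −0.34.

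Of 11 vesicle release genes measured, 10 had intervals wholly below 1, against 34.2% of all measured genes, and 2 (18.2%) were lower, against 6.68%. Their median log2 ratio was −0.51. snap25a, which encodes the SNARE protein SNAP-25, had 6063 counts in the library labelled mutant and 9088 in the library labelled wild type, a ratio of 0.706 (0.683 to 0.729). Its paralogue snap25b (ENSDARG00000058117) was lower, with 1388 counts in the library labelled mutant and 2835 in the library labelled wild type, a ratio of 0.518 (0.486 to 0.553). The Munc18 gene stxbp1a, the most counted of the group, had 9901 counts in the library labelled mutant and 15564 in the library labelled wild type (0.673, 0.656 to 0.690). Both SNAP-25 genes and stxbp1a were thus below 1, with snap25b the farthest of them. No syntaxin gene was among the members.

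Complexin clamps and then speeds fusion, and its gene cplx2 (ENSDARG00000061918) was lower, with 3795 counts in the library labelled mutant and 6605 in the library labelled wild type (0.608, 0.584 to 0.633). The synaptobrevin gene vamp1 had 689 counts in the library labelled mutant and 1180 in the library labelled wild type (0.618, 0.562 to 0.679). For vamp2 the counts were 2686 in the library labelled mutant and 4006 in the library labelled wild type (0.710, 0.675 to 0.745). Other proteins of the vesicle itself had nearly one ratio: 0.729 for the synaptotagmin gene syt1a, 0.722 and 0.703 for the synaptophysin genes sypa and sypb, and 0.696 for the synapsin gene syn2a. The second synaptotagmin 1 gene, syt1b, was barely counted, with 28 counts in the library labelled mutant and 19 in the library labelled wild type, and its interval (0.840 to 2.95) held 1.

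Among the genes of inhibitory transmission, those of glycine handling stood at both ends. slc6a5 encodes the neuronal glycine transporter GlyT2, which refills the terminals of glycine-releasing neurons. Its identifier with more counts (ENSDARG00000067964) had 158 counts in the library labelled mutant and 759 in the library labelled wild type, a ratio of 0.220 (0.184 to 0.262), the lowest among the 47 members. A second identifier of the same name (ENSDARG00000015880) had 150 counts in the library labelled mutant and 631 in the library labelled wild type, a ratio of 0.252 (0.209 to 0.301). Both entries may share reads, so they are not separate evidence. slc6a9 encodes the glycine transporter GlyT1, known from glia and other cells that clear glycine. It had 12554 counts in the library labelled mutant and 10440 in the library labelled wild type, a ratio of 1.27 (1.24 to 1.31), or 1.01 (0.982 to 1.03) when scaled to sarcomere genes.

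The genes of GABA transmission lay between these. gad1b and gad2 encode the glutamate decarboxylases that make GABA. gad2 had 3348 counts in the library labelled mutant and 5474 in the library labelled wild type (0.647, 0.620 to 0.676). For gad1b the counts were 2155 in the library labelled mutant and 2840 in the library labelled wild type (0.803, 0.759 to 0.850). slc32a1 (ENSDARG00000059775), whose product loads both GABA and glycine into vesicles, was lower, with 2534 counts in the library labelled mutant and 4346 in the library labelled wild type (0.617, 0.587 to 0.648). The intervals of all 3 lay below 1, against 34.2% of all measured genes.

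The vesicular glutamate transporter genes slc17a6a and slc17a6b mark glutamate-releasing neurons. Neither was called, where 6.68% of all measured genes were lower and 5.99% higher. slc17a6b had 3275 counts in the library labelled mutant and 5343 in the library labelled wild type (0.649, 0.621 to 0.678), and slc17a6a had a ratio of 0.701 (0.643 to 0.765). The acetylcholine vesicle transporter gene slc18a3a (ENSDARG00000006356), which serves motor and autonomic neurons, was lower. It had 188 counts in the library labelled mutant and 653 in the library labelled wild type, a ratio of 0.305 (0.258 to 0.359).

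The monoamine genes were spread on both sides of no change, with a median log2 ratio of −0.03 over 4 genes. th, which encodes the tyrosine hydroxylase of dopamine and noradrenaline synthesis, had 442 counts in the library labelled mutant and 511 in the library labelled wild type, and its interval (0.804 to 1.04) held 1. th2 (ENSDARG00000038384), a second gene of this family, was lower on few counts, with 19 in the library labelled mutant and 77 in the library labelled wild type (0.261, 0.149 to 0.436). The serotonin synthesis gene tph2 had 536 counts in the library labelled mutant and 354 in the library labelled wild type, the highest ratio among the members at 1.60 (1.40 to 1.84). ddc, whose decarboxylase serves dopamine and serotonin synthesis alike, had 221 counts in the library labelled mutant and 224 in the library labelled wild type, a ratio of 1.04 (0.863 to 1.26), or 0.827 when scaled to sarcomere genes.

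None of the 6 receptor members was called, where 6.68% of all measured genes were lower and 5.99% higher. So few genes do not set the receptors apart from those shares. The AMPA-type glutamate receptor genes gria1a, gria2a and gria2b had ratios of 0.728, 0.680 and 0.923, and the interval of gria2b (0.839 to 1.02) held 1. Of the genes for the common subunit of NMDA-type glutamate receptors, grin1a had 1844 counts in the library labelled mutant and 3034 in the library labelled wild type (0.643, 0.607 to 0.682). grin1b had a ratio of 0.760 (0.699 to 0.827). glra1, which encodes a glycine receptor subunit, lay above 1, with 457 counts in the library labelled mutant and 339 in the library labelled wild type (1.43, 1.24 to 1.65), or 1.13 (0.980 to 1.30) when scaled to sarcomere genes. These directions do not hold for all receptor genes of each kind: beyond the members, the glutamate receptor gene grik1a had a ratio of 1.37 (1.19 to 1.57) and the glycine receptor gene glra4a 0.598 (0.530 to 0.672), both named after their values were seen.

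Of the 3 adhesion genes, cntn2 (ENSDARG00000000472) was lower, as 6.68% of all measured genes were. It encodes contactin 2, a surface protein of outgrowing axons, and had 1721 counts in the library labelled mutant and 5096 in the library labelled wild type, a ratio of 0.357 (0.338 to 0.378). Neurexins organise the presynaptic side of synapses. nrxn1a had 4070 counts in the library labelled mutant and 5312 in the library labelled wild type (0.811, 0.778 to 0.845), and nrxn3a had a ratio of 0.707 (0.660 to 0.756).

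The axon growth genes were deeply counted, and all 4 measured were below 1, where the log2 ratio was negative for 50.1% of all measured genes. The beta-tubulin gene tubb5 had 74409 counts in the library labelled mutant and 117376 in the library labelled wild type, a ratio of 0.671 (0.665 to 0.677). Stathmins regulate the microtubules of growing axons. stmn2b (ENSDARG00000070537) was lower, with 9465 counts in the library labelled mutant and 20171 in the library labelled wild type (0.497, 0.485 to 0.509). stmn1b (ENSDARG00000033655) was lower too, with 18427 counts in the library labelled mutant and 31513 in the library labelled wild type (0.619, 0.608 to 0.630). stmn2a, at 0.661 (0.638 to 0.684), was not called.

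Intermediate filaments give axons their calibre. The neurofilament light chain gene neflb (ENSDARG00000012426) was lower, with 176 counts in the library labelled mutant and 480 in the library labelled wild type (0.388, 0.325 to 0.462). Its paralogue nefla had 77 counts in the library labelled mutant and 119 in the library labelled wild type (0.685, 0.507 to 0.920). The internexin gene inaa had 330 counts in the library labelled mutant and 279 in the library labelled wild type. Its ratio was 1.25 (1.06 to 1.47), or 0.992 (0.843 to 1.17) when scaled to sarcomere genes. The 3 measured filament members therefore held a called gene and a gene whose interval held 1 under that scaling. Beyond the members, the internexin gene inab had a ratio of 0.783 (0.757 to 0.811), and the neurofilament genes nefma and nefmb 0.515 and 0.598. These genes were named after their values were seen.

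Hu proteins are RNA-binding proteins of newly formed and mature neurons. elavl3 had 48530 counts in the library labelled mutant and 71175 in the library labelled wild type (0.722, 0.713 to 0.730), and elavl4 had a ratio of 0.672 (0.653 to 0.692).

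The 4 measured glial members were split, with 2 intervals wholly below 1 and 2 wholly above. None was called, where 6.68% of all measured genes were lower and 5.99% higher. Their median log2 ratio was 0.05, beside −0.52 over the 43 neuronal members. Scaled to sarcomere genes it was −0.29, beside −0.34 over all measured genes. Summed over genes, the ratio was 0.817 for the glial members and 0.676 for the neuronal ones. fabp7a, a fatty acid binding protein gene of radial glia, had 95593 counts in the library labelled mutant and 138444 in the library labelled wild type (0.731, 0.725 to 0.737). slc1a2b, a glutamate transporter gene of astroglia, had a ratio of 0.908 (0.893 to 0.924). The glial filament gene gfap had 5442 counts in the library labelled mutant and 4888 in the library labelled wild type. Its ratio was 1.18 (1.13 to 1.22), or 0.933 (0.898 to 0.970) when scaled to sarcomere genes. The myelin proteolipid gene plp1a had 20063 counts in the library labelled mutant and 16842 in the library labelled wild type. Its ratio was 1.26 (1.23 to 1.29), or 0.999 (0.979 to 1.02) under that scaling.

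Related members were also compared with each other in ratio. The ratio of both ratios was formed for 13 pairs of paralogues or of genes with a shared function, with an exact 95% interval, and the library scaling cancels in it. The interval left out 1 for 11 of the 13 pairs and lay beyond 1.5-fold for 2. It covers counting error only, and no share over unrelated pairs was computed. These counts therefore do not show that related genes differ more often than others. The ratio of slc6a5 was 0.173 times that of slc6a9 (0.145 to 0.206). That of th was 3.51 times that of th2 (2.06 to 6.23). Among the duplicates, snap25a had 1.36 times the ratio of snap25b (1.27 to 1.47), stmn2a 1.33 times that of stmn2b (1.28 to 1.39), and nefla 1.76 times that of neflb (1.24 to 2.50). In these 3 pairs the copy ending in b had the lower ratio, while in the gria2, grin1 and syt1 pairs the copy ending in a did. For slc17a6a over slc17a6b (1.08, 0.980 to 1.19) and sypb over sypa (0.973, 0.906 to 1.05) the interval held 1. How reads matching both copies of a pair were counted is not known here.

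**Figure D3:**
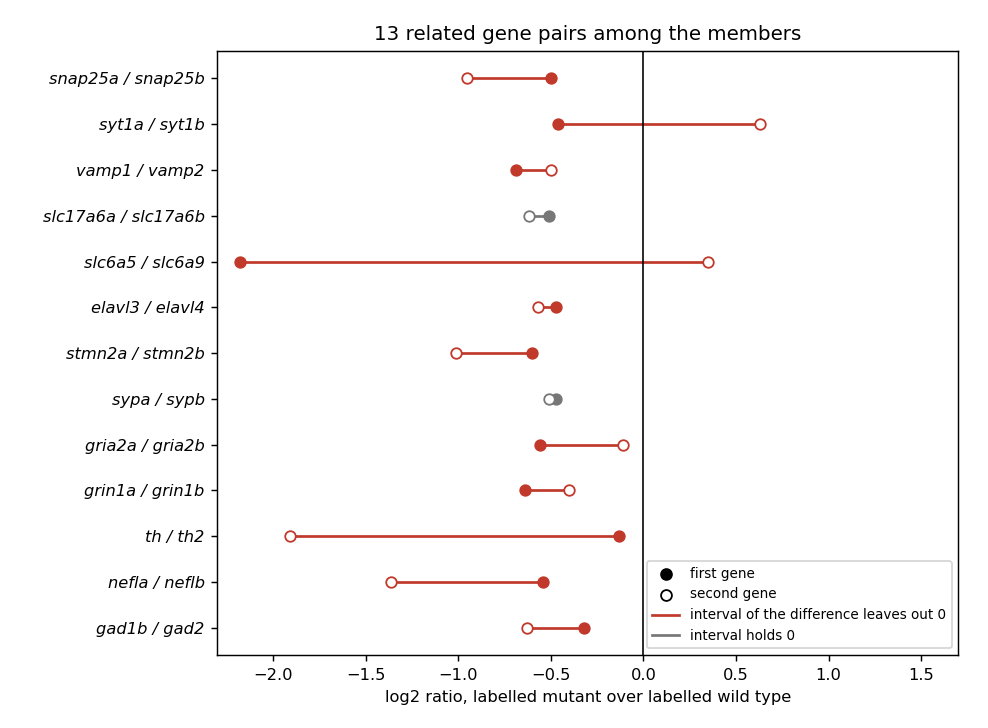
log2 ratio of the library labelled mutant to the one labelled wild type for both genes of each of 13 related pairs; filled points are the first gene named, open points the second. Red marks the 11 pairs whose exact 95% interval of the difference leaves out no difference. The points of slc6a5 and slc6a9, and of th and th2, lie farthest apart.

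Genes of the same processes that are not members were displaced in the same direction. In 8 further neuronal lists with 331 measured genes, 76 (23.0%) were lower and 5 (1.51%) higher, against 6.68% and 5.99% of all measured genes, and the median log2 ratio was −0.40. Of 52 other vesicle release genes 12 were lower and none higher, with a median of −0.46. stxbp1b, the paralogue of the Munc18 member, had 310 counts in the library labelled mutant and 1812 in the library labelled wild type (0.181, 0.160 to 0.204). The synaptotagmin gene syt5b was lower too (0.289, 0.261 to 0.319).

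Of 37 neuronal ion channel genes 12 (32.4%) were lower and none higher, against 6.68% and 5.99% of all measured genes. Their median log2 ratio was −0.48. The calcium channel subunit gene cacnb3b had 55 counts in the library labelled mutant and 218 in the library labelled wild type (0.267, 0.195 to 0.360). The sodium channel subunit gene scn1bb was lower as well (0.367, 0.274 to 0.486). cacna1g, a T-type calcium channel gene also known from the heart and the most counted of the list, had a ratio of 1.25, or 0.991 when scaled to sarcomere genes. Of 62 other receptor genes 10 were lower and none higher, with a median of −0.35. The nicotinic acetylcholine receptor subunit genes chrna3 (0.197, 0.132 to 0.285) and chrna6 (0.315, 0.238 to 0.413) were lower, and chrnb2b, the most counted, had a ratio of 0.965.

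Of 37 other axon cytoskeleton genes 13 (35.1%) were lower and 2 (5.41%) higher, against 6.68% and 5.99% of all measured genes. Their median log2 ratio was −0.48. The neuronal filament gene prph (0.496) and the kinesin gene kif5aa (0.530) were lower, and the tubulin gene tubb6 (2.89) and mtus1a (2.63) higher. The alpha-tubulin gene tuba1a, the most counted, had a ratio of 0.721. Of 49 adhesion genes 11 were lower and 1 higher, around a median of −0.38. The intervals of dscamb (0.307, 0.292 to 0.322) and cntn3a.1 (0.433, 0.360 to 0.519) had the upper ends farthest below 1. The postsynaptic scaffold gene shank2 was higher (2.64). The most counted of the list, alcama, had a ratio of 1.26, or 0.997 when scaled to sarcomere genes. Of 23 other transmitter synthesis and transport genes 3 were lower and none higher, with a median of −0.32. They included the vesicular glutamate transporter gene slc17a7 (0.460) and gad1a (0.514), while the GABA transporter gene slc6a1b, the most counted, had a ratio of 0.766.

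Of 42 pan-neuronal and neurosecretory genes 8 (19.0%) were lower and 1 (2.38%) higher, against 6.68% and 5.99% of all measured genes. Their median log2 ratio was −0.40. The calretinin gene calb2b (0.417) and the secretogranin gene scg3 (0.453) were lower, rbfox1l, an RNA-binding protein gene also known from muscle, was higher (1.65), and rtn1a, the most counted, had a ratio of 0.870. Of 30 peripheral and sensory neuron genes 8 were lower and 1 higher, with a median of −0.32. pou4f1 (0.308) and isl2b (0.336), transcription factor genes of sensory neurons, were lower, and the channel gene trpv1 was higher (1.95, 1.60 to 2.38). The most counted, prdm12b, had a ratio of 1.06, or 0.843 when scaled to sarcomere genes.

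Of 25 other glia and myelin genes 3 (12.0%) were lower and 2 higher, near the shares over all measured genes (6.68% lower and 5.99% higher), with a median log2 ratio of −0.19. The oligodendrocyte lineage factor genes olig2 (0.422, 0.402 to 0.443) and olig1 (0.315, 0.219 to 0.443) were lower, and the glutamine synthetase gene glula was higher (2.01, 1.95 to 2.06). Its paralogue glulb, the most counted, had a ratio of 0.919.

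**Figure D4:**
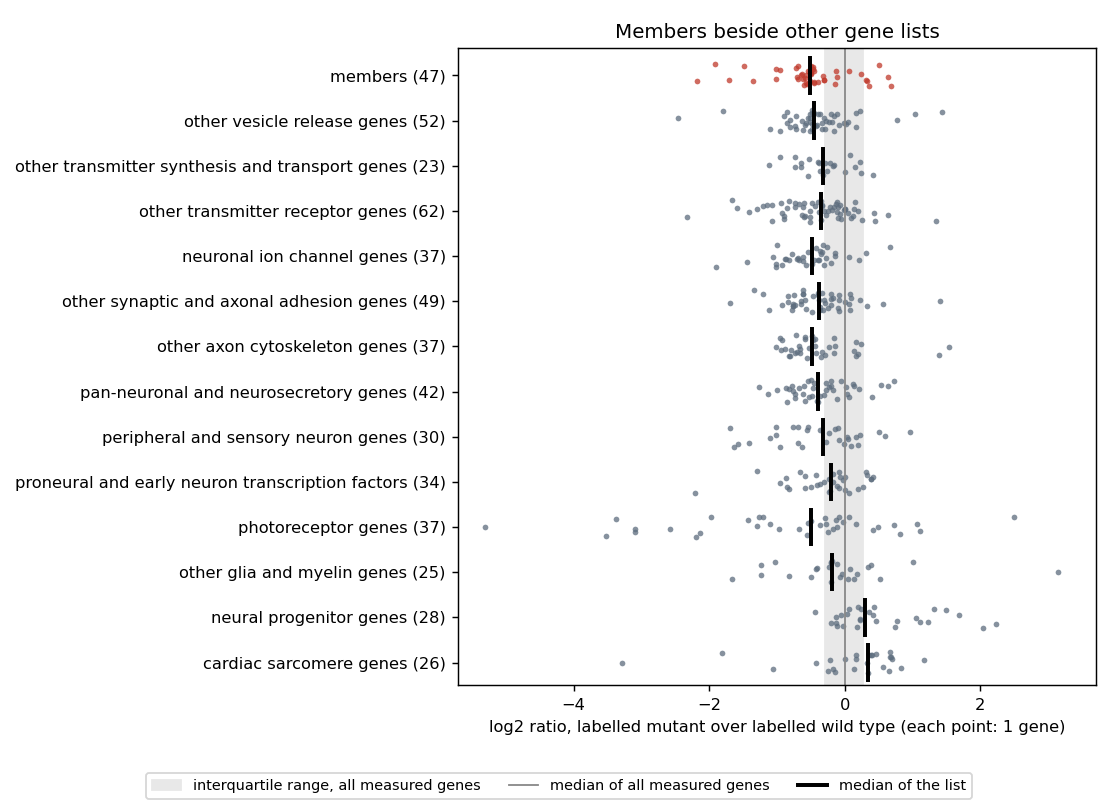
log2 ratio of the library labelled mutant to the one labelled wild type for each measured gene (points) of the members and of 13 other lists, with the number of genes in brackets and each list's median as a black bar; the grey band and line give the interquartile range and median of all measured genes. The medians of the members, of the 8 other neuronal lists and of the photoreceptor genes lie left of the band. That of neural progenitor genes lies at 0.30, and at −0.04 when scaled to sarcomere genes, where that of all measured genes lies at −0.34.

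Of 28 neural progenitor genes 10 (35.7%) were higher and none lower, against 5.99% and 6.68% of all measured genes. Their median log2 ratio was 0.30. Scaled to sarcomere genes it was −0.04, beside −0.34 over all measured genes and −0.84 over the members. The Notch target genes her4.2 (4.69, 4.33 to 5.08) and her4.3 (4.13, 3.66 to 4.66) had the highest ratios. Of the 10 higher genes 7 are her genes, several of them near-identical copies whose counts are uncertain. Without the her genes, a split made after the values were seen, 3 of 20 were higher, and the median was 0.21, or −0.13 when scaled to sarcomere genes. The progenitor factor genes sox2 and sox3 had ratios of 1.14 and 1.17 (0.906 and 0.926 when scaled to sarcomere genes). For sox19a the ratio was 1.28 (1.01 under that scaling), and for the cadherin gene cdh2, the most counted, 1.35 (1.07). The part of heart cells in these values was not tested. Of 34 transcription factor genes of neuron formation 6 were lower and none higher, with a median of −0.20. bhlhe23 (0.216) and neurod (0.407) were lower, and myt1a, the most counted, had a ratio of 0.751.

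Of 37 photoreceptor genes 13 (35.1%) were lower and 2 (5.41%) higher, against 6.68% and 5.99% of all measured genes. Their median log2 ratio was −0.50, with a wider spread than the members. The rod opsin gene rho had 15 counts in the library labelled mutant and 650 in the library labelled wild type (0.0244, 0.0136 to 0.0406). Its regulator crx, the most counted, was lower (0.0968), and rx2 was higher (1.64). On few counts guca1c was higher too (5.88, 2.86 to 13.6), with 50 in the library labelled mutant and 9 in the other. Of the 26 cardiac sarcomere genes used for the other scaling 7 were higher and 3 lower, with a median of 0.34. Among them myh6 (2.25) and tnnc1a (1.78) were higher, tcap (0.102) and actc1b (0.285) lower, and vmhc, the most counted, had a ratio of 1.49. The 3 lower genes went the way of the skeletal muscle markers (summed ratio 0.465), against that of the heart muscle markers (1.55). How far skeletal muscle RNA enters this list, and so the scaling, was not tested.

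The authors' own comparisons rest on 1 library per genotype as well. By the authors' deposited DESeq table, slc6a5 (adjusted p = 0.00755) and cntn2 (adjusted p = 0.0252) were the members with an adjusted p-value under 0.05. Both were lower, where 0.976% of all listed genes are lower and 0.716% higher by that limit. For the 42 measured members with a cluster of their name, the median log2 fold is −0.53 in the authors' deposited UniGene table, and it is 0.01 over all its 22734 clusters. From the Ensembl counts the median of these 42 was −0.50. The authors' deposited UniGene table gives 0.37 for ddc, against 0.06 from the Ensembl counts. It also lists the growth cone gene gap43, which had no Ensembl entry by name, at −0.36. Both comparisons are of the same samples, so one is no replicate of the other.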

How the data were processed

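Heart RNA was isolated and column-purified with RNeasy kits and made into Illumina TruSeq libraries, per the labels' protocols. TopHat, DESeq and the genome build Zv9 are listed in the submitters' processing notes. The sources used here name no counting tool, annotation release or strand setting, so overlapping genes, antisense genes and near-identical copies may share counts. The authors deposited unnormalized counts per Ensembl gene, with a line naming no gene that held 9.17% of the counts in the library labelled mutant and 9.21% in the library labelled wild type; it was left out. Per the file headers, the deposited DESeq table gives a fold change, a log2 fold change and raw and adjusted p-values, and the deposited UniGene table a fold and log2 fold headed OE over CON, under a title that names mutant and wild type. Another 7 value columns of these tables were not used. Count columns were matched to samples by the genotype abbreviations in their names.

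Libraries were scaled by TMM (edgeR 4.0.16, R 4.3.3) to effective sizes of 140420264 counts for the library labelled mutant and 148591398 for the library labelled wild type. Ratios with exact 95% Clopper-Pearson intervals (scipy 1.17.1) and log2 ratios with 0.5 added to each count were computed for all genes. PCR copies are not independent molecules, so intervals cover counting error only; for the members they reached a median of 0.08 on the log2 scale to either side. The computation was tested on simulated counts.

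The members, the 13 other lists and the rules were chosen with earlier results of these data known. Of 561 distinct symbols in those lists 496 matched a name in the authors' table or a current name table, and 481 genes were measured; members were left out of the lists. Values are given for members called, the most counted of each role, pairs, and members near the limit. From each other list up to 2 higher and 2 lower genes with at least 50 counts and intervals farthest from no change are named, and the most counted; sox2, sox3 and sox19a were added as progenitor markers. Alternatives were scalings by DESeq2 1.42.0, by totals, by upper quartiles, by TMM without the 100 most counted genes and by the cardiac sarcomere list, other limits on counts, fold and interval, other pseudocounts, the mean, and the authors' folds. A few genes, among them 2 measured members, are counted in the totals but their own values are not reported here. No genome was used, so no coordinates or sequences are given.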

Additional observations from a re-analysis of the deposited data

How the results depend on the processing

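The members' median log2 ratio stayed between −0.51 and −0.48 under DESeq2 size factors, library totals, upper-quartile factors, TMM without the 100 most counted genes, other count minimums, other pseudocounts, the mean (−0.50) and the authors' folds. Scaled to the cardiac sarcomere genes, which shifts every log2 ratio by −0.34, it was −0.84. With this shift 32 members were lower and none higher, against 15.8% and 3.14% of all measured genes. That shift is set by the median of 26 genes whose log2 ratios ran from −3.28 to 1.17. The intervals under this scaling leave out the error of the shift. No called member changed direction under any scaling, but none could have. All 11 were lower, the sarcomere scaling lowers every ratio, and the other scalings shifted log2 ratios by −0.004 to 0.027 only. The point ratios of ddc, inaa, gfap and plp1a, not called, moved from above 1 to below 1 under the sarcomere scaling. The scaled intervals of inaa (0.843 to 1.17) and plp1a (0.979 to 1.02) held 1. The count of 11 lower members held under the other scalings, count minimums and a 99% interval; it was 5 beyond 2-fold (2.82% of all measured genes) and 37 with no fold limit (34.2%), where 6 were higher (33.9%). The authors' folds, with no interval, put 16 members lower and 2 higher beyond 1.5-fold, where 13.6% of all measured genes are lower and 12.3% higher. Of 14 pairs, with 1 not named here, 12 differed, 10 with a 99% interval and 3 beyond 1.5-fold. Depth limits syt1b, th2 and nefla, and 1 library per genotype limits every value and left no replicate to leave out. No paired analysis was possible because each genotype has 1 library.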

Other observations

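A list of motor neuron genes was written after the value of slc18a3a had been seen, and it is given as a description. Of 8 measured genes 4 were lower and none higher, against 6.68% and 5.99% of all measured genes. Their median log2 ratio was −0.67. The factor genes lhx4 and lhx3 had 509 and 895 counts in the library labelled mutant against 1594 and 1787 in the library labelled wild type, ratios of 0.338 (0.305 to 0.374) and 0.530 (0.489 to 0.575). mnx2a had 20 counts in the library labelled mutant and 89 in the library labelled wild type (0.238, 0.139 to 0.390), and mnx2b 6 and 25. mnx1 (0.741, 0.517 to 1.06) and nkx6.1 (0.976) were not called, and nkx6.2, a gene of ventral neural precursors, had a ratio of 1.46 (1.37 to 1.55).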
